A study of Mus musculus with 6 samples.

Results

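Fgf5, Otx2, Pou3f1, Zic2, Sox1, Sox3, Pax6, Nes, Tubb3 and Pim2 are described here as 10 markers of the exit of mouse embryonic stem cells (mESCs) from the naive state and of neural fate. They were chosen by name as such markers, but with earlier results of these data known. All 10 were found among the 55401 genes of each expression table. Bulk poly(A) RNA-seq was performed on 46C mESCs, a line that carries a reporter at the Sox1 locus. The control cells stably expressed a biotin tag alone, the Rbbp4 OE cells stably expressed biotin-tagged Rbbp4, and the Rbbp7 OE cells stably expressed biotin-tagged Rbbp7. Each of these 3 groups had 2 libraries and no treatment. By the study's methods, all groups also carried the biotin ligase BirA with a V5 tag, delivered by a lentivirus with blasticidin selection, and the FLAG-Avitag vector, delivered by another lentivirus with puromycin selection. All cells grew on gelatin in serum medium with LIF, the GSK3 inhibitor Chir99021 and the MEK inhibitor PD0325901. Whether the cells were clones, and whether the libraries of a group came from separate cultures, is not given in the sources used here, so p-values measure only the spread between these samples.

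Mouse pluripotency passes through a naive state, which LIF together with inhibition of MEK and GSK3 maintains, and a formative state, in which cells become competent to start a lineage. Otx2, Fgf5, Pou3f1 and Zic2 are classical genes of the formative or early primed state, and ERK signalling, which a MEK inhibitor blocks, favours their expression. Sox1, Sox3 and Pax6 are transcription factors of the neural plate, Nes encodes an intermediate filament protein of neural progenitors, and Tubb3 encodes a beta-tubulin that is widely used as a marker of neurons. RBBP4 and RBBP7 are closely related histone-binding proteins that belong to several chromatin complexes, among them NuRD and PRC2.

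Expression is given in TPM, a share of transcripts scaled for transcript length, so levels of different genes can be set side by side. TPM keeps no sequencing depth, so the depth and the counting error behind each value are unknown. Group values are the mean ± SD of 2 libraries. The level of the gene delivered to each line was as labelled. Rbbp4 reached 270 and 271 TPM in the Rbbp4 OE libraries and 143 to 147 TPM in the other 4, and Rbbp7 reached 725 and 748 TPM in the Rbbp7 OE libraries and 208 to 239 TPM in the other 4. The cells carried the markers of their labelled type: the summed TPM of 7 mESC markers was between 3508 and 3769 in every library. Marker lists of other cells summed to 0.97 to 3.29 TPM for primitive endoderm, 14.3 to 17.1 TPM for trophoblast, 6.28 to 9.90 TPM for primitive streak and mesoderm, 6.89 to 18.4 TPM for fibroblast, and 49.8 to 70.5 TPM for neural crest and surface ectoderm. The streak and mesoderm sum was 6.35 ± 0.099 TPM in control, against 9.45 ± 0.64 TPM with Rbbp4 OE and 8.04 ± 0.45 TPM with Rbbp7 OE (SD, n = 2 each). Gsc gave 54.4% of it. The 2 genes tested of this list were T, at 1.11 and 2.34 TPM in control, and Gsc, at 4.21 and 3.37 TPM. In the limma test described below, neither passed in any comparison (adjusted p 0.211 to 0.909). The fibroblast sum was 7.55 ± 0.93 TPM in control, against 12.1 ± 1.87 TPM with Rbbp4 OE and 14.6 ± 5.36 TPM with Rbbp7 OE, and the crest and surface ectoderm sum was 50.2 ± 0.62, 53.4 ± 2.48 and 65.8 ± 6.63 TPM. Foxd3, which mESCs also express, gave 87.3% of the last sum, Thy1 gave 62.7% of the fibroblast sum, and Eomes gave 51.7% of the trophoblast sum. The trophoblast sum hides opposite differences. Eomes was higher, and Cdx2 and Gata3 were lower, in all 4 overexpression libraries than in both controls. None of the 5 tested genes of this list passed the limma test (lowest adjusted p 0.0689). The library of Rbbp7 OE replicate 1 stood apart in a few such genes. The keratin gene Krt14 had 11.4 TPM there and was listed at 0 in the other 5 libraries, and the collagen gene Col3a1 had 6.39 TPM there and at most 0.06 TPM elsewhere. Other collagen genes of the fibroblast list were higher in both Rbbp7 OE libraries, at low levels. Col1a2 had 1.3 and 0.79 TPM there and at most 0.11 TPM in the other 4. Col1a1 had 0.81 and 0.86 TPM there and at most 0.46 TPM in the other 4. Pdgfrb, of the same list, overlapped with control. Differences of Rbbp7 OE from control are also given without replicate 1 for Zic2, Pim2, Nes and Tubb3. Leaving it out removes the Krt14 value and most of Col3a1, but not the Col1a1 and Col1a2 values of replicate 2.

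The 10 genes covered a wide range of levels, which the plot of TPM by library shows gene by gene. Tubb3 was the most abundant in every library and made up 72.8% of their summed TPM. Zic2 and Pim2 followed at 9.57 to 17.4 TPM and 10.5 to 15.0 TPM over all libraries, then Nes at 4.30 to 5.87 TPM and Otx2 at 1.06 to 2.68 TPM. Sox1 lay at 1.00 to 1.67 TPM, Sox3 at 0.59 to 1.08 TPM and Pou3f1 at 0.39 to 0.97 TPM. The ranges of neighbours in this order overlapped for Zic2 and Pim2, for Otx2 and Sox1, for Sox1 and Sox3, and for Sox3 and Pou3f1, and did not overlap for Tubb3 and Zic2, for Pim2 and Nes, or for Nes and Otx2. Fgf5 and Pax6 stood at the bottom with at most 0.18 and 0.37 TPM.

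**Figure D1:**
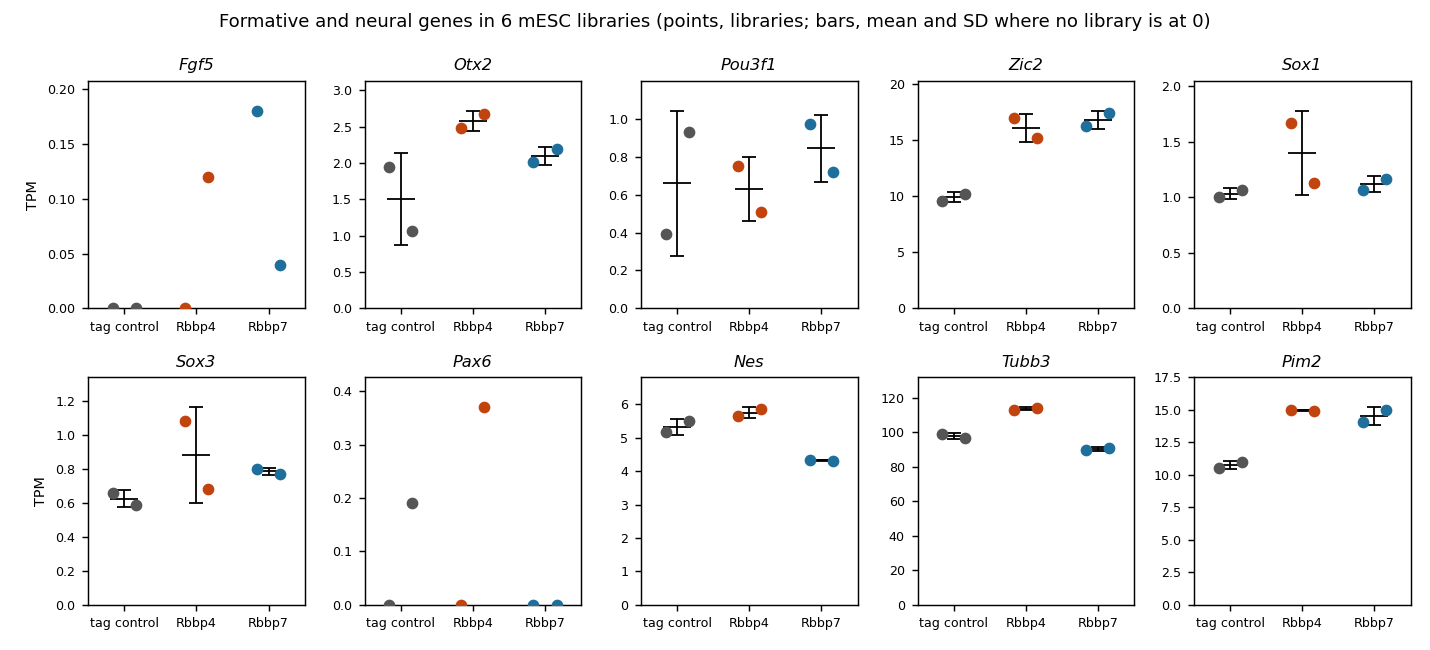
TPM of each of the 10 genes (vertical axis, linear, starting at 0 and scaled for each gene) in the 2 libraries of the tag control, Rbbp4 OE and Rbbp7 OE cells; points are libraries, and bars give the mean and SD where no library was listed at 0. Zic2 and Pim2 stand higher in all 4 overexpression libraries than in both controls, Tubb3 is highest in Rbbp4 OE and lowest in Rbbp7 OE, and Fgf5 and Pax6 stay below 0.4 TPM.

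Fgf5, a secreted growth factor whose transcript marks formative cells, was at or near 0 in all groups. It was listed at 0 in both control libraries and in Rbbp4 OE replicate 1, and had 0.12 TPM in Rbbp4 OE replicate 2 and 0.18 and 0.04 TPM in the Rbbp7 OE libraries. Pax6, a paired-box factor of the neural plate and the eye, was listed at 0 in 4 libraries, and had 0.19 TPM in control replicate 2 and 0.37 TPM in Rbbp4 OE replicate 2. Neither gene reached the mean of 0.5 TPM that was required for testing, so 8 of the 10 genes were tested. Each of these 8 had a mean above 0.5 TPM in each group, so none of them was tested through its level in a single group. Without that requirement, the adjusted p of Fgf5 was between 0.680 and 0.782 and that of Pax6 between 0.612 and 0.846 over the 3 comparisons. Since a TPM of 0 can be a failed estimate, no fold change is given for these genes.

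The first question was whether the tested genes differed between Rbbp4 OE and control. Zic2 and Pim2 were higher in Rbbp4 OE, by 1.57-fold and 1.36-fold, and the other 6 tested genes did not pass the test. By limma, none of the 8 passed an adjusted p under 0.01 with a fold change over 2, against 0.516% of the 14156 genes tested, while 3 of them (Zic2, Pim2 and Tubb3) had an unadjusted p under 0.05, against 29.6% of all genes. Zic2 and Pim2 passed an adjusted p under 0.05 with no minimum fold, which is 2 of 8 higher and 0 lower, against 3.29% of all genes tested that were higher and 8.07% that were lower at this threshold. The share of higher genes among all that passed was 29.0%, and it was 48.1% with median-of-ratios scaling and 45.2% with quantile normalization. Both library values of Rbbp4 OE lay above both control values for 7 of the 8 genes, all but Pou3f1, against 20.8% of all genes. For none did they lie below, against 37.1%, and 57.9% of all genes had no overlap in either direction. The median log2 difference of the 8 was 0.22, and that of all tested genes was -0.08. These differences are between mean log2(TPM + 1) values, a scale that understates the change of low genes, and the same scale is used for every log2 difference and fold change below. Single markers of other cells passed an adjusted p under 0.05 in this comparison, while the other tested genes of their lists did not. Thy1, a surface protein gene of the fibroblast list, made up 62.7% of its sum. Thy1 had 4.13 and 5.02 TPM in control, against 8.87 and 10.8 TPM with Rbbp4 OE (log2 0.96, adjusted p = 0.0192). Of the other tested fibroblast genes, Pdgfrb was lower with no overlap (log2 -0.40), and Col1a1 and Col3a1 differed by -0.07 and 0.0073. Tfap2a, a transcription factor gene of surface ectoderm and neural crest, had 6.58 and 5.35 TPM in control, against 2.60 and 2.27 TPM with Rbbp4 OE (log2 -1.02, adjusted p = 0.0315). Both calls were lost with any single library left out (adjusted p 0.0504 to 0.156 and 0.0670 to 0.194). Their part in the differences of the 8 genes was not tested. In bulk RNA, a different number of cells that express a gene and a different amount of its RNA per cell cannot be told apart.

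Zic2 encodes a zinc finger transcription factor that binds enhancers in pluripotent cells and is needed for forebrain development. The gene lies on chromosome 14 at 122475435 to 122479852 (GRCm38, plus strand) and its longest transcript has 3 exons. Zic2 had 9.57 and 10.2 TPM in the control libraries, 16.9 and 15.2 TPM with Rbbp4 OE, and 16.2 and 17.4 TPM with Rbbp7 OE. The libraries of both overexpression lines were above both controls and overlapped each other. The group means were 9.89 ± 0.45, 16.1 ± 1.23 and 16.8 ± 0.80 TPM (SD, n = 2 each). The fold change of Rbbp4 OE over control was 1.57 (log2 0.65, SE 0.11, 95% interval 0.39 to 0.91, limma adjusted p = 0.0208). The fold change of Rbbp7 OE over control was 1.63 (log2 0.71, SE 0.11, 95% interval 0.45 to 0.97), and its adjusted p of 0.0706 missed the threshold. The Benjamini-Hochberg adjustment depends on how many genes have a small p in a comparison, and 69 genes passed in Rbbp7 OE beside 1609 in Rbbp4 OE. Tested directly, the Rbbp4 and Rbbp7 lines differed in Zic2 by a log2 value of -0.06 (95% interval -0.32 to 0.20, adjusted p = 0.788), whose sign turned under other scalings.

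The call of Zic2 in Rbbp4 OE was lost with any 1 library left out, where fewer residual degrees of freedom remain. Leaving out an Rbbp7 OE library kept the log2 difference at 0.65, since that line enters this comparison only through the shared spread. With each of the 6 libraries left out in turn the log2 difference was between 0.57 and 0.72, and the adjusted p was between 0.0509 and 0.139. Without Rbbp7 OE replicate 1, the library with Krt14 and Col3a1, the log2 difference of Zic2 in Rbbp7 OE was 0.75 (adjusted p = 0.355).

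Zic5 is drawn beside Zic2 in the plot of Zic and Pim genes. Zic5 lies 9757 bases from Zic2 and is transcribed in the opposite direction. It had 4.63 and 5.59 TPM in control, against 4.68 and 6.17 TPM with Rbbp4 OE, and 4.97 and 6.57 TPM with Rbbp7 OE, so that its groups overlapped (log2 0.07 and 0.14, adjusted p = 0.857 and 0.790). Zic1 had at most 0.03 TPM and Zic4 was listed at 0 in all libraries. The difference between Zic2 and Zic5 was not tested.

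**Figure D2:**
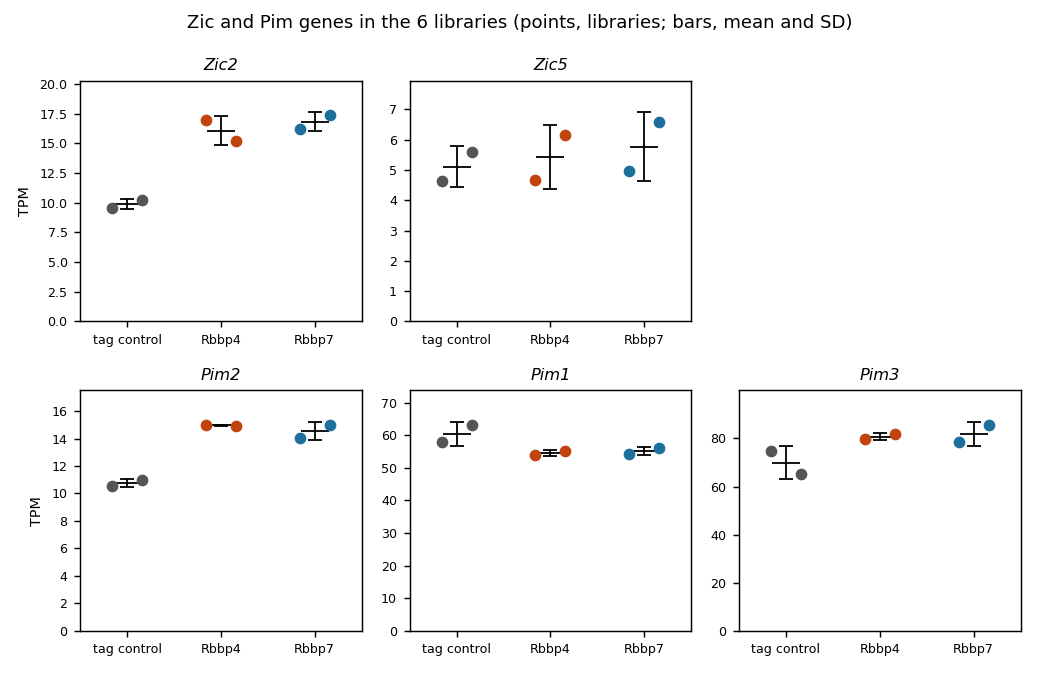
TPM (vertical axis, linear, from 0) of Zic2 and Zic5 in the upper row and Pim2, Pim1 and Pim3 in the lower row, in the 2 libraries of the tag control, Rbbp4 OE and Rbbp7 OE; points are libraries, and bars the mean and SD. Zic2 and Pim2 are higher in all 4 overexpression libraries, Zic5 overlaps among the groups, and Pim1 is lower in the 4 overexpression libraries without passing the test.

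Over the 6 libraries, the protein-coding genes with the pattern most like that of Zic2 were Bin2, Dlgap3 and Cd180. Likeness was the Euclidean distance between log2(TPM + 1) values after each gene was centred on its mean, searched over 12391 protein-coding genes, whose median distance from Zic2 was 0.939. Bin2 (distance 0.107) had 13.6 and 15.8 TPM in control, against 22.4 to 24.6 TPM in the 4 overexpression libraries. Dlgap3 (distance 0.125) had 37.6 and 37.7 TPM in control, against 57.2 to 62.8 TPM in the others, and Cd180 (distance 0.1499) had 0.60 and 0.69 TPM in control, against 1.18 to 1.69 TPM in the others. Among the 8 tested genes the one nearest to Zic2 was Pim2 (distance 0.328), and the farthest was Nes (distance 0.9747).

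Pim2 encodes a serine/threonine kinase that promotes survival and protein synthesis and whose level is set mainly by transcription and turnover. The gene lies on the X chromosome at 7878262 to 7883432 (GRCm38, plus strand), with 6 exons in its longest transcript. Pim2 had 10.53 and 10.97 TPM in the control libraries, 15.0 and 14.9 TPM with Rbbp4 OE, and 14.1 and 15.0 TPM with Rbbp7 OE. As with Zic2, all 4 overexpression libraries were above both controls, and the 2 lines overlapped. The group means were 10.8 ± 0.31, 15.0 ± 0.042 and 14.5 ± 0.68 TPM (SD, n = 2 each). The fold change of Rbbp4 OE was 1.36 (log2 0.44, SE 0.098, 95% interval 0.20 to 0.68, limma adjusted p = 0.0419). The fold change of Rbbp7 OE was 1.32 (log2 0.40, SE 0.098, 95% interval 0.16 to 0.64), with an adjusted p of 0.165 that missed the threshold. The 2 lines differed by 0.04 (95% interval -0.20 to 0.28, adjusted p = 0.853). With any 1 of the 6 libraries left out, the adjusted p in Rbbp4 OE was between 0.0716 and 0.195, so the call was lost each time, while the log2 difference stayed between 0.42 and 0.47. Without Rbbp7 OE replicate 1, the log2 difference of Rbbp7 OE was 0.45.

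The other PIM kinase genes were more abundant than Pim2. Pim1 had 57.9 and 63.1 TPM in control, against 54.0 and 55.3 TPM with Rbbp4 OE, and 54.3 and 56.0 TPM with Rbbp7 OE, with log2 differences of -0.14 and -0.13 (adjusted p = 0.246 and 0.452). Pim3 had 74.7 and 65.1 TPM in control, against 79.6 and 81.7 TPM with Rbbp4 OE, and 78.4 and 85.5 TPM with Rbbp7 OE, with log2 differences of 0.21 and 0.23 (adjusted p = 0.179 and 0.297). Pim1 was lower and Pim3 higher in all 4 overexpression libraries than in both controls, and neither passed the test. The difference between the 3 kinase genes was not tested.

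The sequence just upstream of Pim2 is shown because it holds several copies of the POU octamer core, the letters ATGCAAA (or TTTGCAT on the other strand), which octamer-binding factors such as OCT4, encoded by Pou5f1, and the product of Pou3f1 recognise. It runs from chrX:7878056-7878261 on the plus strand of GRCm38.p6, was read from the RefSeq promoter windows, and ends at the base before the annotated start of the gene, with the octamer cores in capitals.
Pim2 upstream: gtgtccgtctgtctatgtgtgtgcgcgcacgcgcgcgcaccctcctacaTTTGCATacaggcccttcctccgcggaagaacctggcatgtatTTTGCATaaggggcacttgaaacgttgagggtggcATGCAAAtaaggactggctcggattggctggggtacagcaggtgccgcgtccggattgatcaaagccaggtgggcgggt
The 3 matches end 151, 108 and 73 bases before the gene start. At least 1 match on either strand occurs in 4.63% of the 32851 promoter windows of 300 bases, at least 2 in 0.292%, and at least 3 in 0.0274%, which is 9 windows. Windows were found for 7 of the 10 genes, and Pou3f1, Zic2 and Sox3 had none. Besides the 3 matches of Pim2, the Sox1 window held 1 match, and those of Fgf5, Otx2, Pax6, Nes and Tubb3 held none. A match describes the letters and not occupancy. Pou5f1 itself had 1455 and 1577 TPM in control, against 1781 and 1816 TPM with Rbbp4 OE, and 1574 and 1643 TPM with Rbbp7 OE. It rose in Rbbp4 OE by limma (log2 0.25, adjusted p = 0.0334). That rise missed the threshold with median-of-ratios scaling, with no filter, with the replicate number as a block and in the fit of control and Rbbp4 OE alone. Of the libraries left out singly, the rise held only without control replicate 1. In Rbbp7 OE the Pou5f1 values overlapped with control (log2 0.09, adjusted p = 0.476). Whether OCT4 binds these matches or has a part in the level of Pim2 was not tested.

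Otx2, a homeodomain factor that drives the move from the naive to the formative state, lies on chromosome 14 at 48657677 to 48673819 (GRCm38, minus strand) and has 6 exons in its longest transcript. It had 1.95 and 1.06 TPM in the control libraries, 2.48 and 2.68 TPM with Rbbp4 OE, and 2.01 and 2.19 TPM with Rbbp7 OE. The overexpression libraries were all above both controls, and Rbbp4 OE was above Rbbp7 OE, but the 2 controls were farther apart than the 4 others. The log2 difference was 0.54 in Rbbp4 OE (95% interval -0.01 to 1.09, adjusted p = 0.177) and 0.33 in Rbbp7 OE (95% interval -0.22 to 0.88, adjusted p = 0.539). Both values hung on the controls: without control replicate 2 they were 0.28 and 0.071, and without control replicate 1 they were 0.80 and 0.59. The lines differed by 0.21 (95% interval -0.34 to 0.76, adjusted p = 0.651). None of these passed the test, and the intervals still allow a difference of over 1 on the log2 scale for Rbbp4 OE. The related genes Otx1 and Crx had at most 0.34 and 0.03 TPM.

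Pou3f1, a gene of 1 exon on chromosome 4 at 124656807 to 124660655 (GRCm38, plus strand), encodes the POU factor OCT6 of the epiblast and of glia. It had 0.39 and 0.93 TPM in control, against 0.75 and 0.51 TPM with Rbbp4 OE, and 0.97 and 0.72 TPM with Rbbp7 OE, so that the 2 controls held the lowest value and nearly the highest. The log2 difference was -0.01 in Rbbp4 OE (95% interval -0.65 to 0.63, adjusted p = 0.986) and 0.17 in Rbbp7 OE (95% interval -0.47 to 0.80, adjusted p = 0.815), and its groups overlapped in all 3 comparisons. Its sign turned in Rbbp4 OE without control replicate 2 (0.23) or Rbbp4 OE replicate 2 (0.10), and in Rbbp7 OE without control replicate 1 (-0.07). Its relatives Pou3f2, Pou3f3 and Pou3f4 had at most 0.14 TPM in any library.

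The SoxB1 genes encode transcription factors that hold cells in a progenitor state. Sox1 (chromosome 8, 12395295 to 12400126, GRCm38, plus strand, 1 exon), an early mark of neuroectoderm and the gene at which 46C carries its reporter, had 1.00 and 1.07 TPM in control, against 1.67 and 1.13 TPM with Rbbp4 OE, and 1.07 and 1.17 TPM with Rbbp7 OE. The Rbbp4 OE value rested on replicate 1, and the log2 difference was 0.23 (95% interval -0.29 to 0.75, adjusted p = 0.518) in Rbbp4 OE and 0.06 (95% interval -0.46 to 0.57, adjusted p = 0.936) in Rbbp7 OE. Whether the reporter allele alters the reads assigned to Sox1 was not tested. Sox3 (X chromosome, 60891366 to 60893430, GRCm38, minus strand, 1 exon) had 0.66 and 0.59 TPM in control, against 1.08 and 0.68 TPM with Rbbp4 OE, and 0.80 and 0.77 TPM with Rbbp7 OE. Its 4 overexpression libraries were above both controls by little, with log2 differences of 0.20 (95% interval -0.34 to 0.75, adjusted p = 0.594) and 0.14 (95% interval -0.41 to 0.68, adjusted p = 0.829). Sox1 and Sox3 were the closest pair of all 8 genes in their pattern over the libraries (distance 0.149), and both peaked in Rbbp4 OE replicate 1. The distance is not scaled by spread, so low genes with small differences, such as these, lie close by this measure. Sox2, the SoxB1 gene of pluripotent cells, was at 307 to 375 TPM in the 6 libraries and passed no test (lowest adjusted p 0.329).

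Nes and Tubb3 had their highest values in Rbbp4 OE and their lowest in Rbbp7 OE. Nestin, the product of Nes (chromosome 3, 87971078 to 87980451, GRCm38, plus strand), is the intermediate filament protein of neural stem cells. Nes had 5.16 and 5.49 TPM in control, against 5.64 and 5.87 TPM with Rbbp4 OE, and 4.34 and 4.30 TPM with Rbbp7 OE, so that the libraries fell in the order Rbbp7 OE, control, Rbbp4 OE with no overlap. The log2 difference was 0.10 in Rbbp4 OE (95% interval -0.22 to 0.41, adjusted p = 0.672) and -0.25 in Rbbp7 OE (95% interval -0.57 to 0.07, adjusted p = 0.428). Between the lines it was 0.34 (95% interval 0.03 to 0.66), and its adjusted p of 0.235 did not pass. Vim, which encodes the intermediate filament protein vimentin, had 296 and 305 TPM in control, against 398 and 377 TPM with Rbbp4 OE, and was at 558 and 322 TPM with Rbbp7 OE, with the highest value in the library that held Krt14 and Col3a1. Without that library, the log2 difference of Nes in Rbbp7 OE was -0.25 (adjusted p = 0.655).

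Tubb3 lies on chromosome 8 at 123411424 to 123422015 (GRCm38, plus strand). It had 99.0 and 96.8 TPM in control, against 113 and 114 TPM with Rbbp4 OE, and 89.5 and 91.0 TPM with Rbbp7 OE, in the same order as Nes and with no overlap. The group means were 97.9 ± 1.58, 114 ± 0.82 and 90.3 ± 1.05 TPM (SD, n = 2 each). The fold change was 1.16 in Rbbp4 OE (log2 0.21, SE 0.054, 95% interval 0.08 to 0.35, limma adjusted p = 0.0560) and 0.923 in Rbbp7 OE (log2 -0.12, SE 0.054, 95% interval -0.25 to 0.02, adjusted p = 0.378). The 2 lines differed by 1.26-fold (log2 0.33, 95% interval 0.20 to 0.46), with an adjusted p of 0.0950. None of the 3 passed, although each difference was larger than the spread between replicates, and Tubb3 passed in Rbbp4 OE with median-of-ratios scaling (adjusted p = 0.0414) and with quantile normalization (adjusted p = 0.0324). Without Rbbp7 OE replicate 1, the log2 difference of Rbbp7 OE from control was -0.10 (adjusted p = 0.640), and the difference between the lines was 0.32 (adjusted p = 0.408) on the log2 scale.

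Reads of Tubb3 may be shared with other annotated genes. Gm20388, a readthrough gene on the same strand, is annotated from 119910841 to 124345722 on chromosome 8, far beyond both ends of Tubb3. It had 19.5 and 19.6 TPM in control, against 17.1 and 16.8 TPM with Rbbp4 OE, and 6.06 and 9.68 TPM with Rbbp7 OE. Its level was lowest in the line in which Tubb3 was lowest, but in Rbbp4 OE it was below control while Tubb3 was above control. The part of Gm20388 in the Tubb3 values was not tested. Genes annotated over Otx2, Pou3f1, Sox1 and Pax6 had at most 0.02 TPM. Among the other beta-tubulins, which are close in sequence to Tubb3, Tubb4b rose in Rbbp4 OE (808 and 788 TPM in control, against 956 and 945 TPM with Rbbp4 OE, log2 0.25, adjusted p = 0.0179), although the rise kept its threshold only without control replicate 1 when single libraries were left out (adjusted p 0.0306 to 0.145). Tubb5, the most abundant, was at 1433 to 1505 TPM in all libraries (log2 0.02 in Rbbp4 OE, adjusted p = 0.793). Tubb2a had a log2 difference of 0.21 in Rbbp4 OE (adjusted p = 0.0776), the same as Tubb3, and Tubb2b one of 0.11 (adjusted p = 0.140).

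For Rbbp7 OE against control, none of the 8 genes passed either threshold by limma, against 0.0353% of all genes at an adjusted p under 0.01 with a fold over 2 and 0.487% at an adjusted p under 0.05 (0.198% higher and 0.29% lower). The unadjusted p was under 0.05 for 2 of them, Zic2 and Pim2, against 15.4% of all genes. The libraries did not overlap for 4 genes that were higher (Zic2, Pim2, Otx2 and Sox3), against 21.2% of all genes, and for 2 that were lower (Nes and Tubb3), against 23.4%, which makes 6 of 8 in either direction, against 44.5%. The median log2 difference of the 8 was 0.15, and that of all tested genes was -0.0037. For Rbbp4 OE against Rbbp7 OE, none passed either threshold by limma, against 0.0494% and 0.304% of all genes, and the unadjusted p was under 0.05 for Nes and Tubb3, 2 of 8, against 19.0% of all genes. Here 3 genes, Otx2, Nes and Tubb3, were higher in Rbbp4 OE with no overlap, against 16.1% of all genes, and none was lower with no overlap, against 38.6% (54.7% in either direction). The median log2 difference of the 8 was 0.12, beside -0.08 for all tested genes. The 2 control libraries entered the comparisons of both lines, so the differences from control are not independent of each other.

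**Figure D3:**
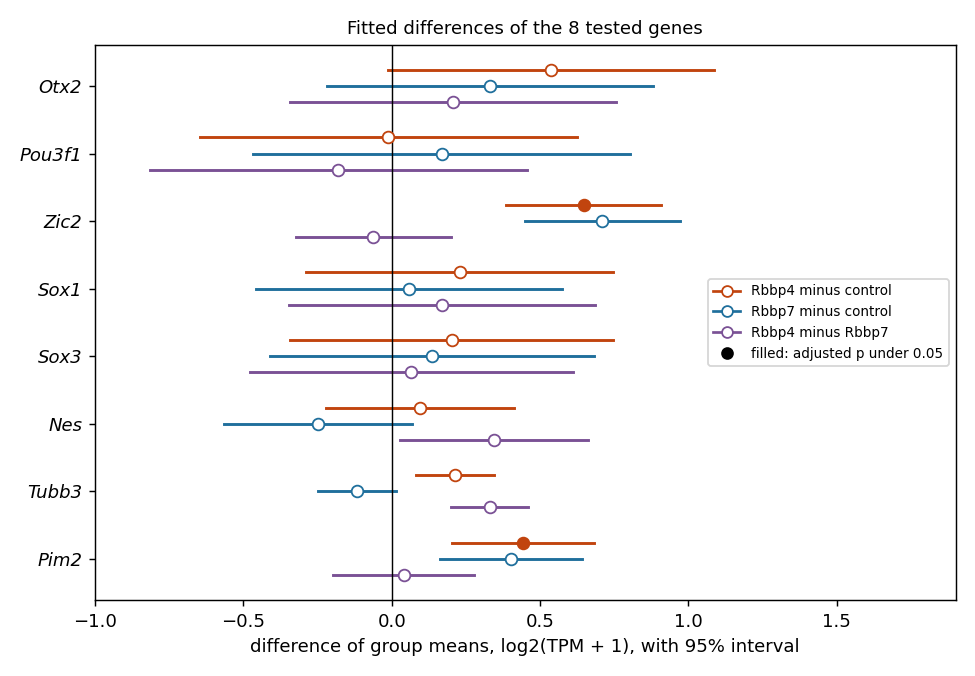
Fitted difference of group means on the log2(TPM + 1) scale (horizontal axis) with its 95% interval for each of the 8 tested genes (vertical axis) in the 3 comparisons, which share libraries; a filled point has an adjusted p under 0.05. The filled points are Zic2 and Pim2 in Rbbp4 OE against control (0.65 and 0.44), and the intervals of Nes and Tubb3 between the lines lie above 0 without passing after adjustment.

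The other genes of these states were then described by lists. Among 14 other genes of the formative state, Zic5 included, 13 were tested. Utf1, which encodes a chromatin-associated factor of pluripotent cells, and Tcf15, which encodes a bHLH factor that primes exit from the naive state, rose in Rbbp4 OE, and no gene of the list fell, which is 2 of 13 higher and 0 lower, against 3.29% and 8.07% of all genes. Utf1 had 215 and 203 TPM in control, against 287 and 288 TPM with Rbbp4 OE, and 295 and 313 TPM with Rbbp7 OE (log2 0.46, adjusted p = 0.0102 in Rbbp4 OE, and log2 0.54, adjusted p = 0.0305 in Rbbp7 OE). In Rbbp7 OE this is 1 of 13 higher, against 0.198% of all genes. Tcf15 had 44.1 and 43.4 TPM in control, against 61.8 and 63.6 TPM with Rbbp4 OE, and 57.0 and 59.3 TPM with Rbbp7 OE (log2 0.51, adjusted p = 0.0118, and log2 0.40, adjusted p = 0.0788). All 4 overexpression libraries lay above both controls for both genes, as for Zic2 and Pim2.

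With single libraries left out, the rises of Utf1 and Tcf15 in Rbbp4 OE passed only without control replicate 1 (adjusted p 0.0270 to 0.125 and 0.0289 to 0.124 over the 6), and the rise of Utf1 in Rbbp7 OE was lost in all 6 (0.112 to 0.212). Both rises in Rbbp4 OE also missed the threshold when control and Rbbp4 OE were fitted alone. That of Utf1 in Rbbp7 OE missed it with median-of-ratios scaling, with no filter on low values and in the fit of control and Rbbp7 OE alone. Other scalings added genes in Rbbp4 OE: 4 of the 13 passed with median-of-ratios scaling and 5 with quantile normalization. Of all 14156 genes, 1422 and 1498 passed there. The list's median was 0.33 under both, beside 0.0059 and -0.016 for all tested genes. Whether Utf1 and Tcf15 differed in their response was not tested. The fitted difference was above 0 for 12 of the 13 genes in each line, with medians of 0.23 in Rbbp4 OE and 0.28 in Rbbp7 OE beside -0.08 and -0.0037 for all tested genes. The exception in both lines was Lin28b, which encodes an RNA-binding protein, with 0.81 and 1.33 TPM in control, against 0.30 and 0.14 TPM with Rbbp4 OE, and 0.40 and 0.46 TPM with Rbbp7 OE (log2 -0.75 and -0.52, adjusted p = 0.101 and 0.382). Between the lines none of the 13 passed by limma, with 2 at an unadjusted p under 0.05, against 19.0% of all genes. The de novo DNA methyltransferase genes Dnmt3a and Dnmt3b and their cofactor gene Dnmt3l had log2 differences of 0.23 to 0.25 in Rbbp4 OE and 0.13 to 0.37 in Rbbp7 OE, with no adjusted p under 0.0791.

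Of 20 other neural progenitor genes, 5 reached the level for testing. Msi1, which encodes the RNA-binding protein Musashi of neural stem cells, had 15.7 and 19.5 TPM in control, against 28.9 and 27.3 TPM with Rbbp4 OE, and 22.2 and 23.7 TPM with Rbbp7 OE. It rose in Rbbp4 OE (log2 0.65, adjusted p = 0.0276), which is 1 of 5 higher, against 3.29% of all genes, and in Rbbp7 OE its log2 difference was 0.37 (adjusted p = 0.236). Its call held without either control library and was lost without any of the other 4 (adjusted p 0.0456 to 0.172 over the 6), and it was also lost with no filter and in the fit of control and Rbbp4 OE alone. The list's median log2 difference over these 5 genes was -0.37 in Rbbp4 OE and -0.07 in Rbbp7 OE, beside -0.08 and -0.0037 for all tested genes. The median in Rbbp4 OE was not stable: it was 0 over 17 genes with no filter, 0.44 over 2 genes at a mean TPM of at least 5, -0.12 with a pseudocount of 5, and -0.16 without either Rbbp4 OE library. That in Rbbp7 OE was 0.38 over those 2 genes and between -0.13 and 0.019 with libraries left out. The 3 genes Sox21, Rax and Cdh2 were below 0 in both lines and did not pass the test. In Rbbp7 OE none of the 5 passed by limma (2 at an unadjusted p under 0.05, against 15.4% of all genes), nor did any between the lines (0 at an unadjusted p under 0.05, against 19.0%). Sox21 had 4.77 and 5.78 TPM in control, against 3.38 to 3.89 TPM in the 4 overexpression libraries (log2 -0.43 and -0.47, adjusted p = 0.132 and 0.248). The forebrain and spinal cord factor genes Six3 and Olig2 and the radial glia gene Fabp7 were listed at 0 in all libraries.

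Of 11 other neuronal genes, 3 were tested and none passed by limma in any comparison, with 1 at an unadjusted p under 0.05 in Rbbp4 OE against control, 0 in Rbbp7 OE against control and 1 between the lines, against 29.6%, 15.4% and 19.0% of all genes. In Rbbp4 OE against control, 1 gene of this list passed at a mean TPM of at least 5 (beside 2039 of all 9035 genes). The same count passed with median-of-ratios scaling (1422 of 14156) and with protein-coding genes only (1970 of 12392). Stmn2, which encodes a microtubule regulator of growth cones, had 151 and 153 TPM in control, against 210 and 175 TPM with Rbbp4 OE, and 158 and 147 TPM with Rbbp7 OE (log2 0.33, adjusted p = 0.0726 in Rbbp4 OE). It made up 94.5% of the summed TPM of this list, so that the list's level was its level. The proneural gene Neurog2 and the neuroblast gene Dcx were listed at 0 in all libraries. The neural adhesion molecule gene Ncam1 had 7.12 to 8.09 TPM over the 6 libraries, the microtubule-associated protein gene Map2 0.24 to 1.43 TPM, and the neuronal RNA-binding protein genes Elavl3 and Elavl4 0.40 to 0.54 and 0.18 to 0.76 TPM.

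Naive pluripotency genes were all tested, 13 of 13. In Rbbp4 OE 1 rose and 3 fell, against 3.29% and 8.07% of all genes. Klf2, which encodes a transcription factor of the naive state, had 284 and 281 TPM in control, against 402 and 386 TPM with Rbbp4 OE (log2 0.48, adjusted p = 0.00884). Tfcp2l1, Nanog and Fgf4 fell by 0.52, 0.23 and 0.45 on the log2 scale (adjusted p = 0.0330, 0.0393 and 0.0255). The first 2 encode naive transcription factors and the third the growth factor that signals through ERK. Nanog had 484 and 521 TPM in control, against 434 and 420 TPM with Rbbp4 OE. When single libraries were left out, these 3 decreases passed only without control replicate 1, with the adjusted p reaching 0.207, 0.209 and 0.166, and the rise of Klf2 passed without control replicate 1 and without either Rbbp7 OE library (adjusted p 0.0292 to 0.111). The 3 decreases also missed the threshold with no filter and in the fit of control and Rbbp4 OE alone, and that of Nanog missed it with median-of-ratios scaling and with quantile normalization. In Rbbp7 OE none of the 13 passed by limma (median -0.0048, lowest adjusted p 0.124), with 5 at an unadjusted p under 0.05, against 15.4% of all genes, and Klf2 had 314 and 335 TPM there. Between the lines none passed by limma (lowest adjusted p 0.105), with 7 at an unadjusted p under 0.05, against 19.0% of all genes.

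**Figure D4:**
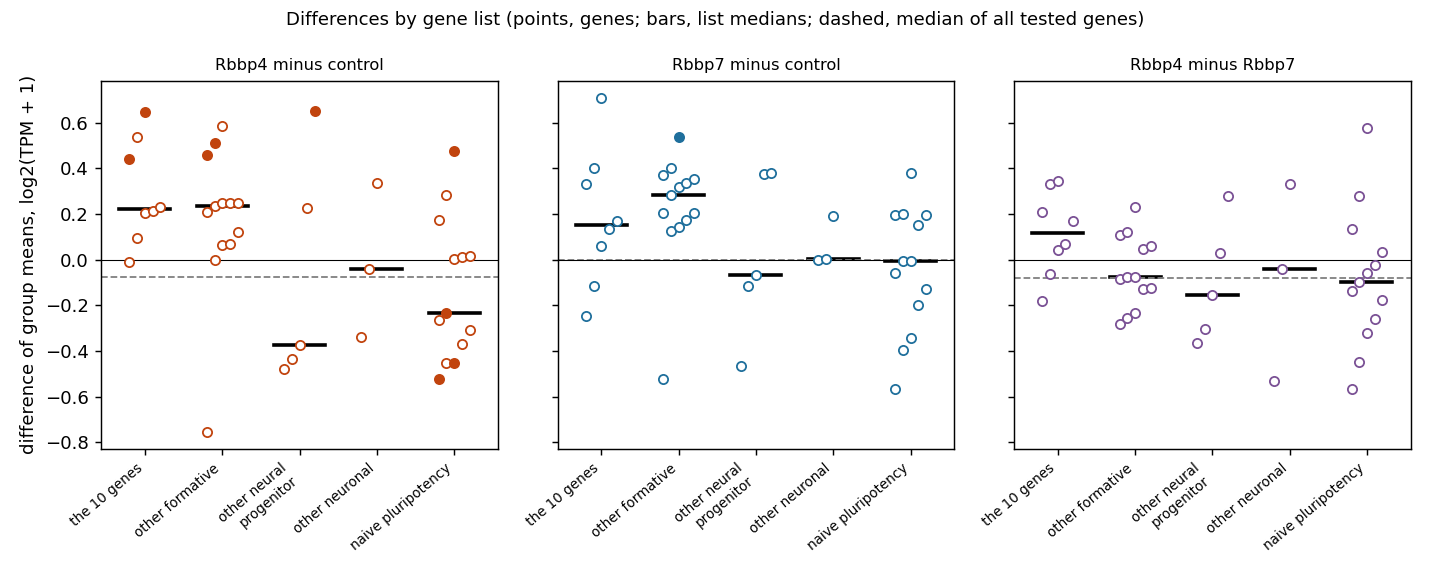
Difference of group means on the log2(TPM + 1) scale (vertical axis) for each tested gene of 5 lists (horizontal axis) in the 3 comparisons; points are genes, filled where the adjusted p is under 0.05, bars are list medians and the dashed line is the median of all tested genes. The medians of the 8 tested genes of the 10 and of the other formative genes lie at 0.22 and 0.23 in Rbbp4 OE and at 0.15 and 0.28 in Rbbp7 OE, and those of the naive genes at -0.23 and -0.0048.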

How the data were processed

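RNA-seq libraries were made with a poly(A) kit, whose strand setting in counting is not given in the sources used here. Reads were trimmed with Trim_galore v0.6.7, aligned to mm10 with STAR v2.7.0d and quantified with RSEM v1.3.3 on GENCODE vM25, and the authors deposited 1 table of TPM values per library. Depth is not kept in TPM, so no count-based test, interval or floor could be used. Each sample was grouped by its title and genotype label.

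Gene names and coordinates came from GENCODE M21 (GRCm38), matched on the gene identifier without version (55141 of 55401 genes). Promoter windows came from RefSeq on GRCm38.p6.

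The 14156 genes whose TPM averaged 0.5 or more over 6 libraries were tested with limma 3.58.1 (trend, R 4.3.3) on log2(TPM + 1), with the 3 groups in 1 fit, no covariate, 3 residual degrees of freedom and Benjamini-Hochberg adjustment over all tested genes. The authors used a count model, which TPM does not allow. The thresholds were an adjusted p under 0.01 with a fold over 2, and an adjusted p under 0.05. The test was run first on simulated data with planted changes larger than those of Zic2 and Pim2. That run does not measure the power for smaller changes. With 2 libraries against 2, an exact permutation test cannot go below p = 0.333, so none was used.

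The 10 genes, the gene lists and the tests were chosen with earlier results of these data known. Named besides the 10 genes are list genes with an adjusted p under 0.05 (up to 4 per list and comparison), paralogs, the nearest 3 genes to Zic2, the gene with the widest range of group means, and marker genes that carry their list's sum. The other list genes and overlapping genes were named after their values were seen, and some list genes are not reported here. Alternatives were pseudocounts of 0.1 and 5, quantile normalization, median-of-ratios scaling, no filter (all genes above 0 in any library), a minimum mean of 5 TPM, protein-coding genes only, robust empirical Bayes, 2-group fits, the replicate number as a block, and leaving out each library.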

Additional observations from a re-analysis of the deposited data

How the results depend on the processing

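The number of the 10 genes with an adjusted p under 0.05 in Rbbp4 OE against control, 2 as reported, was 1 with no filter, 1 with the replicate block, 0 in a 2-group fit and 0 to 0 with each library left out in turn, where fewer samples leave fewer residual degrees of freedom. It was 2 or 3 under the other alternatives. In Rbbp7 OE against control, 0 as reported, it was 1 (Zic2) at a mean TPM of at least 5 and 1 with protein-coding genes only, where fewer genes are tested. Replicate numbers did not pair the samples (correlation of same-numbered deviations -0.026, 0.034 and -0.031), and the block removed the call of Pim2 (adjusted p = 0.0745) and kept that of Zic2 (0.0464). Beyond the 10 genes, it also removed those of Tfcp2l1, Nanog and Pou5f1 in Rbbp4 OE and of Utf1 in Rbbp7 OE. The log2 difference of Zic2 in Rbbp4 OE ranged from 0.50 to 0.77 over 16 alternatives and passed in 9, that of Pim2 from 0.34 to 0.57 and passed in 7, and that of Tubb3 from 0.20 to 0.32 and passed in 4, both other scalings among them. The sign turned for differences near 0 in Pou3f1, Zic2, Sox3 and Pim2. For Pou3f1 in Rbbp4 OE it was 0.019 with a pseudocount of 0.1, 0.033 with median-of-ratios scaling, and between -0.25 and 0.23 with libraries left out, and in Rbbp7 OE it was between -0.068 and 0.41 with libraries left out. For Zic2 between the lines it was 0.029 with median-of-ratios scaling, 0.058 with quantile normalization and between -0.14 and 0.012 with libraries left out. For Sox3 between the lines it was between -0.087 and 0.22, and for Pim2 between -0.0045 and 0.085, with libraries left out. Of all recomputed differences of the tested genes, 340 kept their sign and side of the threshold, 16 lost the threshold, 6 gained it and 10 turned. Depth is unknown, and a mean over 2 libraries gives little precision below about 1 TPM, where Pou3f1 and Sox3 lie.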
